A study of Mus musculus with 4 samples.

Results

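Ptchd3 and 6 related genes of the patched-domain family (Ptchd1, Ptchd4, Ptch1, Disp1, Disp2 and Npc1) were followed in mouse testis RNA. The 7 genes were taken by symbol from the 17924 gene symbols in the deposited tables, and all 7 were listed. Bulk RNA sequencing had been done on testes of male C57BL/6 mice kept on a normal diet for 18 weeks. There were 2 samples from mice lacking Tas1r3 (KO) and 2 from wild-type mice (WT). Diet, strain and sex were the same in both genotypes, and the labels give no separate age and no statement that each sample came from its own animal. P-values therefore measure the spread between these samples, which may be technical. Tas1r3 encodes the subunit shared by the sweet and umami taste receptors, and the study asks how testis transcripts differ without it.

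Patched-domain proteins thread the membrane many times and carry a sterol-sensing domain. Patched 1 is the receptor for Hedgehog ligands and holds the pathway silent until a ligand binds, the Dispatched proteins include the one that releases cholesterol-bearing ligand from the cell that makes it, and NPC1 moves cholesterol out of lysosomes. In testis, Sertoli cells secrete Desert hedgehog, and neighbouring Leydig and peritubular cells receive it through Patched 1. Ptchd3 stands apart from these broadly used genes, since in mouse it is a gene of male germ cells whose protein is found in sperm.

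Levels are in CPM, the reads of a gene scaled to a library total of 1000000. The value of 1 read was estimated from the steps between low values, which gave depths of 748637 and 597937 reads in KO samples 1 and 2, and 1719355 and 1807697 reads in WT samples 1 and 2. Both KO libraries were shallower than both WT libraries, so depth and genotype cannot be told apart, and read numbers in the text are rounded estimates. The targeted gene checked the labels: Tas1r3 stood at 1.34 and 0 CPM in KO samples 1 and 2, against 13.8 and 20.5 CPM in WT samples 1 and 2 (about 1 and 0 reads, against 24 and 37). The tissue label was checked by germ cell markers, 10 genes of elongating spermatids summing to 29852 and 41040 CPM in the KO samples and to 34455 and 34571 CPM in the WT samples.

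Ptchd3 was the family member in which the genotypes stood far apart. It was chosen because it was the 1 gene past the adjusted limma threshold of 0.05 in this same contrast (0.00564% of 17744 tested genes), so its values are a description and carry no test. No gene passed with a pseudocount of 0.1 CPM, without a mean trend, with the highest transcript of each gene only or without either WT sample, and 1249 and 568 passed without KO sample 1 and KO sample 2. Ptchd3 stood at 62.1 and 53.3 CPM in KO samples 1 and 2, and at 264 and 241 CPM in WT samples 1 and 2. The lower WT sample had more than the higher KO sample by a wide margin, and the genotypes did not overlap. The estimated reads were 46 and 32 in the KO samples, against 454 and 435 in the WT samples. The means were 57.7 ± 6.21 CPM in KO testis and 252 ± 16.6 CPM in WT testis (SD, n = 2 each). The log2 fold change of KO over WT was -2.11 (SE 0.16), a KO level 4.32-fold lower. All fold changes were taken between log2(CPM + 1) values, which understates those of low genes. From the summed reads alone the KO level was 0.23 of the WT level, with an exact 95% binomial interval from 0.18 to 0.29 that covers counting error only. The gene was still well detected in KO testis, where the detection floor of 3 reads corresponds to 4.01 and 5.02 CPM in samples 1 and 2.

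**Figure D1:**
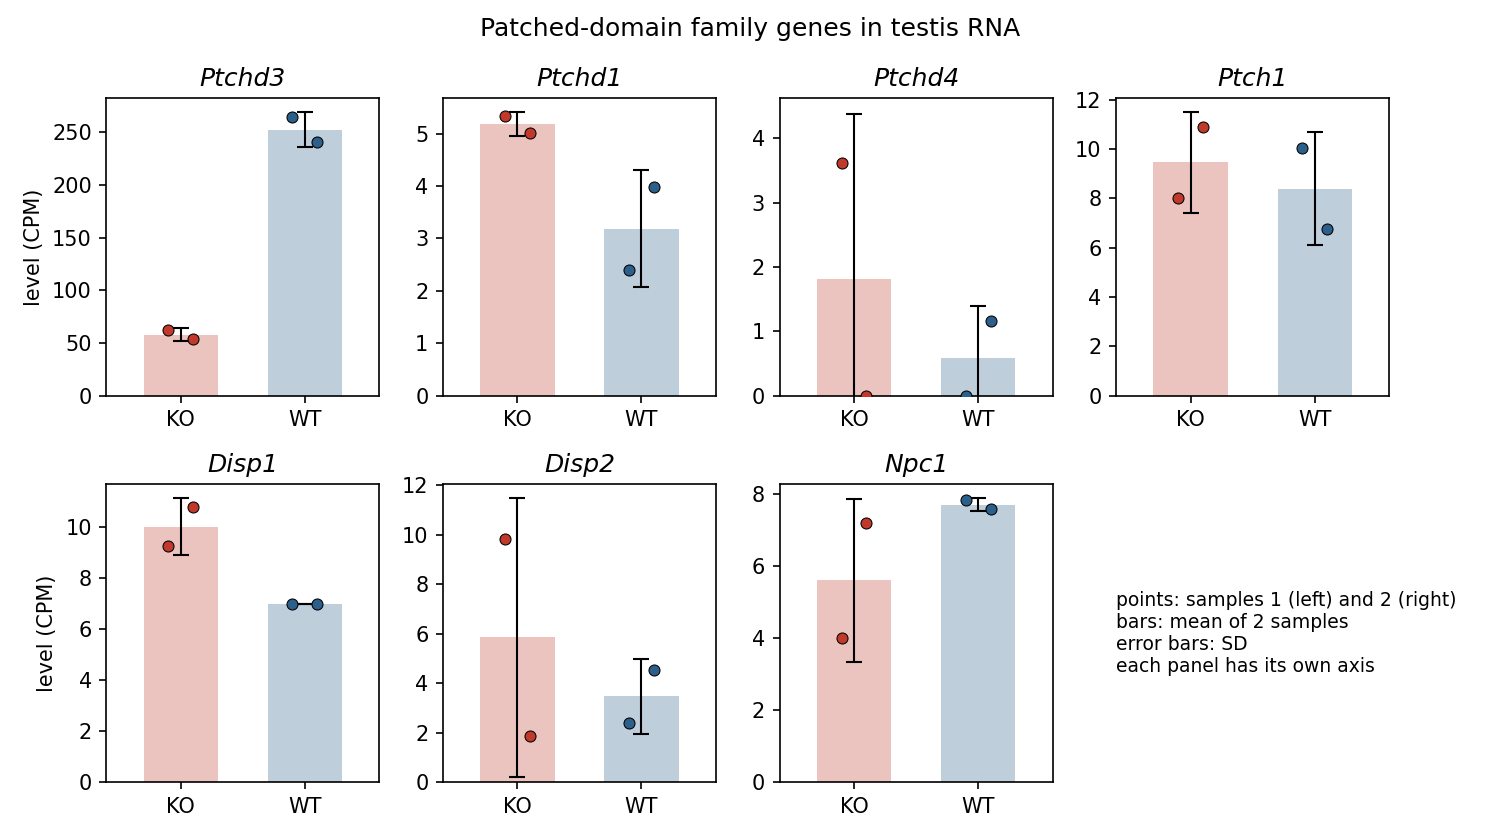
Levels of the 7 genes in CPM (vertical axes, each panel on its own scale from 0) in KO and WT testis, with points for samples, bars for the mean of 2 samples and error bars for the SD (for Ptchd4 the lower ends are cut at 0). The KO points of Ptchd3 lie at 62.1 and 53.3 CPM and its WT points at 264 and 241 CPM, while the other 6 genes stay under 20 CPM in every sample.

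Among well expressed genes, with transcripts summed, no other difference in this direction came near that of Ptchd3, which was chosen for it. Of 7366 genes whose mean over the 4 samples reached 20 CPM, Ptchd3 was the 1 gene with a log2 fold change below -1.5, and the next lowest value was -1.22. Including Ptchd3, 15 of these genes lay below -1, and 4 lay above 1. Under the bound of 20 CPM no such count was made, and Tas1r3 (-3.54), Sall4 (-3.37) and Hbb-bt (-2.84) were among the genes lower than Ptchd3. None of them passed the adjusted limma threshold (adjusted p = 0.942 for each). As the targeted gene Tas1r3 itself did not pass, not passing does not show an equal level, here or in the gene lists below. With the highest transcript only, Atp6v0c was at -2.72 and Ptchd3 at -2.11. Leaving out single samples moved the log2 fold change of Ptchd3 no further than -2.22 and -2.0.

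**Figure D2:**
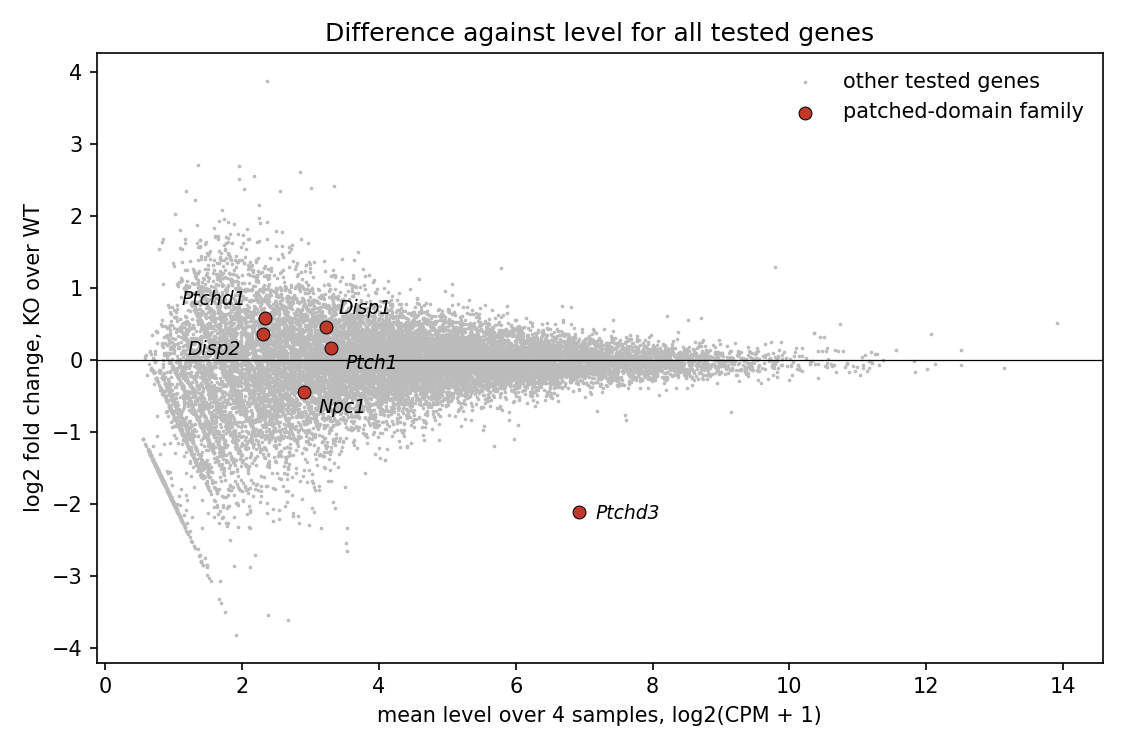
Log2 fold change of KO over WT (vertical axis) against mean level over the 4 samples in log2(CPM + 1) (horizontal axis) for all 17744 tested genes, with the family in red. Ptchd3 at -2.11 lies below the other genes of its level, and Ptch1, Ptchd1, Disp1, Disp2 and Npc1 lie inside the cloud. Ptchd4 is not marked because it had no more than 3 reads in either genotype.

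The deposited tables list Ptchd3 as a single RefSeq transcript, NM_029049, of 3236 bases, on the plus strand of chromosome 11 (mm39, 121721044 to 121734263). GENCODE M21, an annotation of the older build GRCm38, gives the coding transcript 4 exons and 2718 coding bases, and adds a second transcript with a retained intron and no coding part. When the 3194-base GENCODE transcript was searched against all GENCODE transcripts with BLAST, the 1 match in another gene was 74 bases of Gstt3 at 79.7% identity. No annotated transcript of another gene held a copy of at least 100 bases at 95% identity; genome sequence outside these transcripts was not searched. On the opposite strand GENCODE places the antisense RNA Gm15643, which lies 0.144 kb before Ptchd3 without overlapping it. RefSeq places a small nucleolar RNA gene inside Ptchd3 that touches none of its exons.

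The bases just before the start of Ptchd3 are shown because they are the stretch of its promoter nearest to the transcript whose level differed. RefSeq promoter sequences of GRCm38.p6 were available for 5 of the 7 genes. The 250 bases upstream of Ptchd3, chr11:121829968-121830217 on the plus strand, read as follows, with the match to a searched motif in capitals.
Ptchd3 upstream: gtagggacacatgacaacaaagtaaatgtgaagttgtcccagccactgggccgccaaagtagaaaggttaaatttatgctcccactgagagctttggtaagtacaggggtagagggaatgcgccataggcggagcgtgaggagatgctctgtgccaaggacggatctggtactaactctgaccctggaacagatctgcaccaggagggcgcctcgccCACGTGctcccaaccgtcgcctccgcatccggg

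The capitals mark an E-box, CACGTG, whose first base lies 33 bases before the start, and 6.02% of 32851 promoter windows of this length in the RefSeq table hold one. The other motifs were searched on both strands without a match in this window. They were the TATA box TATAAA (held by 12.4% of the windows), CCAAT (33.8%), the GC box GGGCGG (32.7%), the cyclic AMP response element (1.55%) and its core TGACG (17.8%), the MYB element AACNGTT (3.80%) and the GLI element (0.225%). The core is part of the full one, so these counts overlap. The window was 56.0% G and C, against a median of 52.4% over all windows. The motifs were chosen with the sequence in view, and a match or its absence describes only these letters.

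Ptchd3 is the last listed gene of chromosome 11. The 3 listed genes before it differed in both directions, with log2 fold changes of 0.87 (Metrnl), -0.74 (B3gntl1) and 0.59 (Tbcd). Metrnl, a secreted protein gene 113 kb upstream, stood at 9.67 and 12 CPM in the KO samples and at 5.34 and 5.53 CPM in the WT samples. B3gntl1, a glycosyltransferase-like gene 157 kb upstream, stood at 8.46 and 7.5 CPM in the KO samples and at 12.5 and 15.5 CPM in the WT samples. Tbcd, a tubulin folding factor gene 213 kb upstream, stood at 23.0 and 39.3 CPM in the KO samples and at 19.5 and 19.9 CPM in the WT samples. In each of these 3 genes the genotypes did not overlap, 2 of them with KO above WT and 1 with KO below. Of all tested genes, 34.4% did not overlap (15% with KO higher and 19.4% with KO lower). Within 1 Mb of Ptchd3 there were 18 other genes, all tested, with 12 log2 fold changes above 0 and 6 below, from -0.74 to 1.18. None of the 18 passed in limma with Benjamini-Hochberg adjustment, where 0.00564% of all tested genes passed, and 0 had an unadjusted p under 0.05, against 4.69% of all tested genes.

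**Figure D3:**
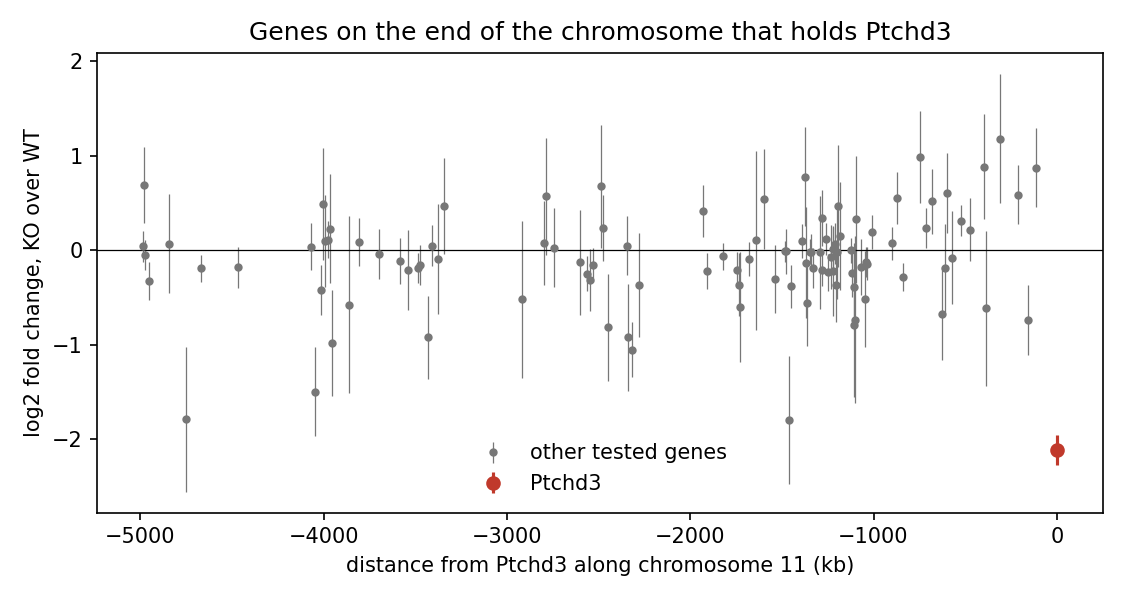
Log2 fold change of KO over WT with its SE (vertical axis) for tested genes towards the end of chromosome 11, against distance from Ptchd3 in kb (horizontal axis, negative upstream). Ptchd3 at -2.11 lies at the end of the chromosome, and the 18 genes within 1 Mb of it lie between -0.74 and 1.18, while a few genes farther away reach below them with wide error bars.

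Germ cell markers were set beside Ptchd3, because fewer cells of a type and less RNA per cell cannot be told apart in bulk tissue. The 7 round spermatid markers summed to 1550 and 1725 CPM in KO samples 1 and 2 and to 1569 and 1484 CPM in WT samples 1 and 2. The 7 spermatocyte markers summed to 5363 and 5628 CPM in the KO samples and to 5501 and 5242 CPM in the WT samples. In both lists, and in the elongating spermatid list, the sums of the genotypes overlapped. Ldhc gave most of the spermatocyte sum. Log2 fold changes were above 0 in 6 of the 7 spermatocyte markers and 5 of the 7 round spermatid markers, with medians of 0.14 and 0.07. They were above 0 in 3 of the 10 elongating spermatid markers (median -0.08). In that order, the lists held 2, 1 and 0 genes with an unadjusted limma p under 0.05 (4.69% of all tested genes). In each list the genotypes did not overlap in 2 genes, against 34.4% of all tested genes. Per 100 CPM of round spermatid markers there were 4.00 and 3.09 CPM of Ptchd3 in the KO samples, against 16.8 and 16.2 CPM in the WT samples. Per 100 CPM of elongating spermatid markers there were 0.21 and 0.13 CPM of Ptchd3 in the KO samples, against 0.77 and 0.70 CPM in the WT samples. The mean sums of these 2 lists had KO over WT ratios of 1.07 and 1.03. As Ptchd3 was chosen for its lower KO level, its lower KO values on both scales are a description and not a result.

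Other cell types were represented at lower levels. The 9 Sertoli cell markers summed to 493 and 464 CPM in the KO samples and to 482 and 472 CPM in the WT samples. The 7 spermatogonial markers summed to 147 and 148 CPM in the KO samples and to 128 and 116 CPM in the WT samples, without overlap. Of the 7, 5 had log2 fold changes above 0, among them Dmrt1 (0.64), Stra8 (0.59) and Uchl1 (0.42), and the median was 0.19. The genotypes did not overlap in 5 of the 7, in both directions (71.4%, against 34.4% of all tested genes). Sall4, a regulator of undifferentiated spermatogonia, was at 0 CPM in both KO samples and at 12.1 and 7.15 CPM in the WT samples. The 7 Leydig cell markers summed to 1574 and 1606 CPM in the KO samples and to 1713 and 1838 CPM in the WT samples, and the 5 peritubular myoid markers to 85.7 and 86.5 CPM in the KO samples and to 105 and 114 CPM in the WT samples, both without overlap. Most of the Leydig sum was Insl3, at 1234 and 1278 CPM in the KO samples and 1517 and 1464 CPM in the WT samples. Of the 7 Leydig markers, 3 had log2 fold changes above 0 and 4 below, from -0.25 to 0.75 (median -0.10, and 0.44 without WT sample 2). All 5 myoid markers had log2 fold changes below 0 (median -0.57). The genotypes did not overlap in 3 of these 5 (60%, against 34.4% of all tested genes). The 5 endothelial markers summed to 27.0 and 20.5 CPM in the KO samples and to 27.5 and 32.7 CPM in the WT samples, without overlap. The 5 listed macrophage markers summed to between 34.1 and 54.7 CPM over the 4 samples, and the 5 blood cell markers to 35.8 and 53.9 CPM in the KO samples and to 47.8 and 186 CPM in the WT samples. All 5 blood cell markers had log2 fold changes below 0 (median -1.05, and 0.04 without WT sample 2). No marker gene passed the adjusted limma threshold. At 0 in a library were, besides Sall4, Pecam1 of the endothelial list and Hbb-bt of the blood list. The part of these shifts in the family's differences was not tested.

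**Figure D4:**
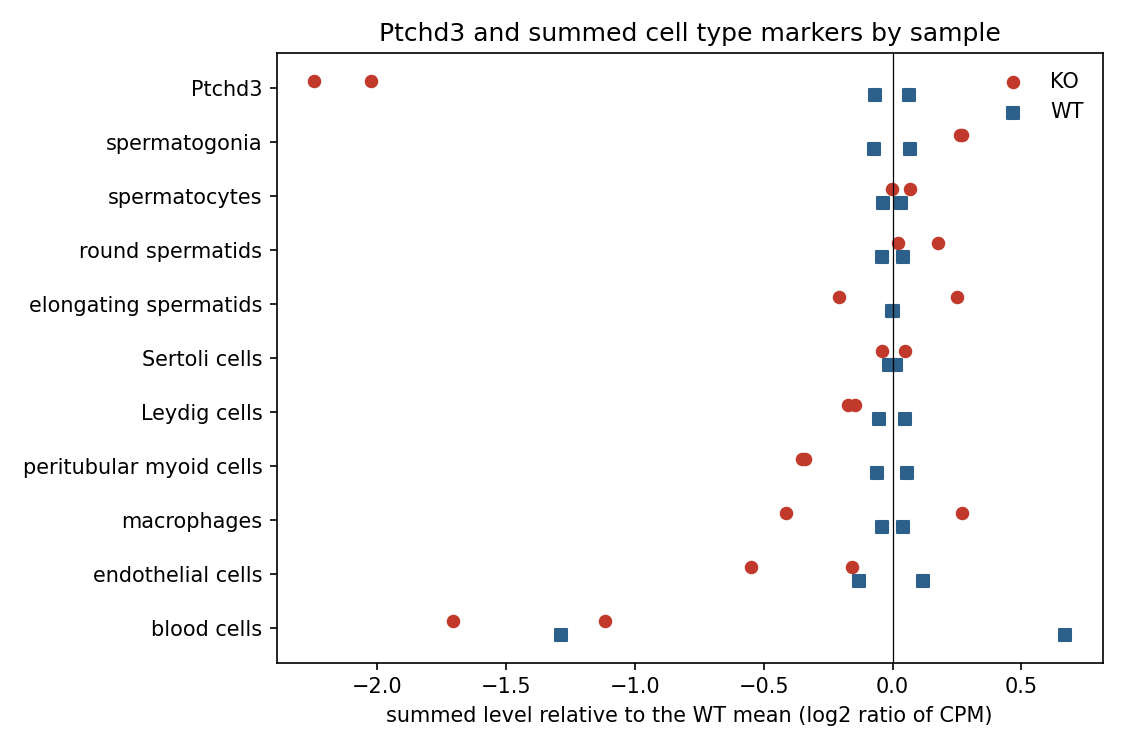
Summed CPM of each marker list and of Ptchd3 in each sample, as the log2 ratio to the mean of the WT samples (horizontal axis), with KO samples as circles and WT samples as squares. Ptchd3 lies below -2 in both KO samples, at 62.1 and 53.3 CPM against a WT mean of 252 CPM, while the summed germ cell lists lie close to 0.

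The other 6 family genes were low in every sample. Per kilobase of transcript, Ptchd3 had a level of 19.2 and 16.5 CPM per kb in the KO samples and 81.6 and 74.4 CPM per kb in the WT samples. The next highest level per length was that of Disp1, at 1.92 and 2.17 CPM per kb in the KO samples and 1.40 and 1.41 CPM per kb in the WT samples. Below it came Npc1, Ptch1, Disp2, Ptchd1 and Ptchd4, with means over the 4 samples of 1.28, 1.22, 0.70, 0.64 and 0.18 CPM per kb. Ptchd3 was above Disp1 in every sample of either genotype, and from Disp1 downwards each gene overlapped the next in the order. Summed over the 7 genes, Ptchd3 made up 60.8% and 59.8% of the family's CPM in the KO samples and 89.9% and 88.6% in the WT samples.

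Ptch1 on chromosome 13 (63656142 to 63721275, minus strand), the Hedgehog receptor and itself a target of the pathway, stood at 8.01 and 10.9 CPM in the KO samples and at 10.03 and 6.77 CPM in the WT samples. The genotypes overlapped, and the log2 fold change was 0.16 (SE 0.42). It was below 0 without KO sample 2 (-0.038) and without WT sample 2 (-0.091). The tables divide its reads between 2 transcripts of 7301 and 7306 bases. In KO sample 2 nearly the whole level, 10.9 CPM, was given to NM_008957, whereas in KO sample 1 and in WT samples 1 and 2 that transcript took 49.2%, 54.0% and 60.6%. With about 6 and 7 reads in the KO samples and 17 and 12 in the WT samples, the division between transcripts rests on few reads.

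The Dispatched genes act on the sending side of the pathway. Disp1 on chromosome 1 (182867828 to 183003094, minus strand), which releases Hedgehog ligand from its source cells, stood at 9.24 and 10.8 CPM in the KO samples and at 6.97 and 6.99 CPM in the WT samples. Both KO samples were above both WT samples, on about 7 and 6 reads in the KO samples and 12 and 13 in the WT samples. The log2 fold change of Disp1 was 0.46 (SE 0.40), and it was -0.36 when only the transcript with the highest mean was used. One of its 3 transcripts, NM_001278220, held 77.4% of the gene's level in KO sample 1 and 0.036% in KO sample 2, against 0.018% and 0.031% in WT samples 1 and 2. Disp2 on chromosome 2 (118610200 to 118625657, plus strand), a relative of Disp1, stood at 9.83 and 1.87 CPM in the KO samples and at 2.40 and 4.55 CPM in the WT samples. The KO samples of Disp2 enclosed the WT samples, and its log2 fold change of 0.36 (SE 0.72) became -0.60 without KO sample 1.

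Of the other patched-domain genes, Ptchd1, a gene of the X chromosome (154352732 to 154406324, minus strand) tied to intellectual disability and autism in humans, stood at 5.34 and 5.02 CPM in the KO samples and at 2.39 and 3.98 CPM in the WT samples. The genotypes did not overlap, with about 4 and 3 reads in the KO samples and 4 and 7 in the WT samples. Its log2 fold change was 0.59 (SE 0.53), and 0.31 without WT sample 1. BLAST found a copy of at least 100 bases at 95% identity in the gene model Gm15156, so its few reads are uncertain. Ptchd4 on chromosome 17 (42627491 to 42818633, plus strand) stood at 3.62 and 0 CPM in the KO samples and at 0 and 1.16 CPM in the WT samples. That is no more than 3 reads in either genotype, so no fold change is given. Ptchd1 and Ptchd4 were the 2 family members whose transcripts matched each other, over 462 bases at 66.2% identity.

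Npc1 on chromosome 18 (12322751 to 12369444, minus strand), the lysosomal cholesterol exporter, stood at 4.01 and 7.20 CPM in the KO samples and at 7.83 and 7.58 CPM in the WT samples. The KO samples lay below the WT samples without overlap, KO sample 2 only narrowly, on about 3 and 4 reads in the KO samples and 13 and 14 in the WT samples. The log2 fold change was -0.44 (SE 0.47), and it was -0.087 without KO sample 1 and -0.80 without KO sample 2. Npc1 was the 1 gene of the 5 with enough reads whose log2 fold change was below 0. A stretch of at least 100 bases at 95% identity also occurs in a transcript of Rmc1, so part of the Npc1 reads is uncertain.

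None of the 6 genes passed when limma p-values were adjusted by Benjamini-Hochberg over the 17744 tested genes, of which 0.00564% passed (adjusted p from 0.942 to 0.977), and 0 had an unadjusted p under 0.05, against 4.69% of all tested genes. The genotypes did not overlap in 3 of the 6, where 34.4% of all tested genes did not overlap. KO was higher in 2 of the 3 (15% of all tested genes) and lower in 1 (19.4%). The median log2 fold change of the 5 genes with more than 3 reads in a genotype was 0.36, and that of all tested genes was -0.05. The read counts set wide limits on these genes. From summed reads, the KO level relative to WT had an exact 95% binomial interval of 0.56 to 2.33 for Ptch1, 0.64 to 2.76 for Disp1, 0.62 to 4.65 for Disp2, 0.55 to 4.71 for Ptchd1 and 0.25 to 1.6 for Npc1. The Ptchd3 value, a KO level of 0.23 of WT, lies below each of these intervals, but its own interval of 0.18 to 0.29 overlaps that of Npc1. The intervals cover counting error only and leave out the spread between samples, so they do not exclude a difference of that size. Each interval holds the ratios compatible with a gene's read counts and is not a limit of detection. Tas1r3, the targeted gene, did not pass the adjusted limma threshold either, on about 1 summed read in KO and 61 in WT. That the 6 genes did not pass is therefore no evidence of equal levels.

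The Hedgehog pathway outside the family was represented by 38 genes, all listed and tested. None passed the adjusted limma threshold in either direction, 2 had an unadjusted p under 0.05 (4.69% of all tested genes did), 13 had log2 fold changes above 0 and 25 below. The median was -0.08 (0.06 without KO sample 2 and -0.025 without KO sample 1), against -0.05 over all tested genes, and the genotypes did not overlap in 9 of the 38 (23.7%, against 34.4% of all tested genes). The highest levels belonged to intracellular components. Iqce, a protein of the ciliary base complex that passes on the signal, stood at 228 and 259 CPM in the KO samples and at 236 and 259 CPM in the WT samples. Csnk1a1, a kinase of the Gli factors, stood at 214 and 246 CPM in the KO samples and at 277 and 228 CPM in the WT samples. Sufu, which restrains the Gli factors, stood at 196 and 162 CPM in the KO samples and at 178 and 195 CPM in the WT samples. All 3 overlapped between genotypes. Sufu had a log2 fold change of -0.06, and of 0.14 with its highest transcript only.

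The signalling genes nearest to Patched 1 were read on few reads, and those named next were chosen after their values were seen. Dhh, the Sertoli cell ligand, stood at 18.0 and 48.5 CPM in the KO samples and at 31.5 and 24.9 CPM in the WT samples, so the KO samples lay on both sides of the WT samples. Smo, which Patched 1 holds inactive, stood at 1.34 and 5.16 CPM in the KO samples (about 1 and 3 reads) and at 6.46 and 7.13 CPM in the WT samples (about 11 and 13 reads). Its log2 fold change of -1.04 was the lowest of the 38. Of the 7 receptors and co-receptors, 4 lay below 0 and 3 above, namely Hhip (0.47), Gas1 (0.36) and Boc (0.30). Gli1, a transcription factor and target of the pathway, was at about 1 and 0 reads in the KO samples and 4 in each WT sample. Its log2 fold change of -1.01 was the lowest of the 21 intracellular genes, of which 16 lay below 0 and 5 above. The 2 genes of the 38 with an unadjusted limma p under 0.05 were Gpc4, a cell-surface glypican at 10.7 and 17.8 CPM in the KO samples and 8.72 and 2.34 CPM in the WT samples, and Spop, a ubiquitin ligase adaptor at 44.1 and 39.4 CPM in the KO samples and 30.6 and 22.4 CPM in the WT samples. Neither passed after adjustment (adjusted p = 0.942 for both). Without KO sample 1 the count of Hedgehog genes past the threshold was 3 (Dhh and Gpc4 higher, Stk36 lower), with the lone remaining KO sample assumed to vary like the WT samples.

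**Figure D5:**
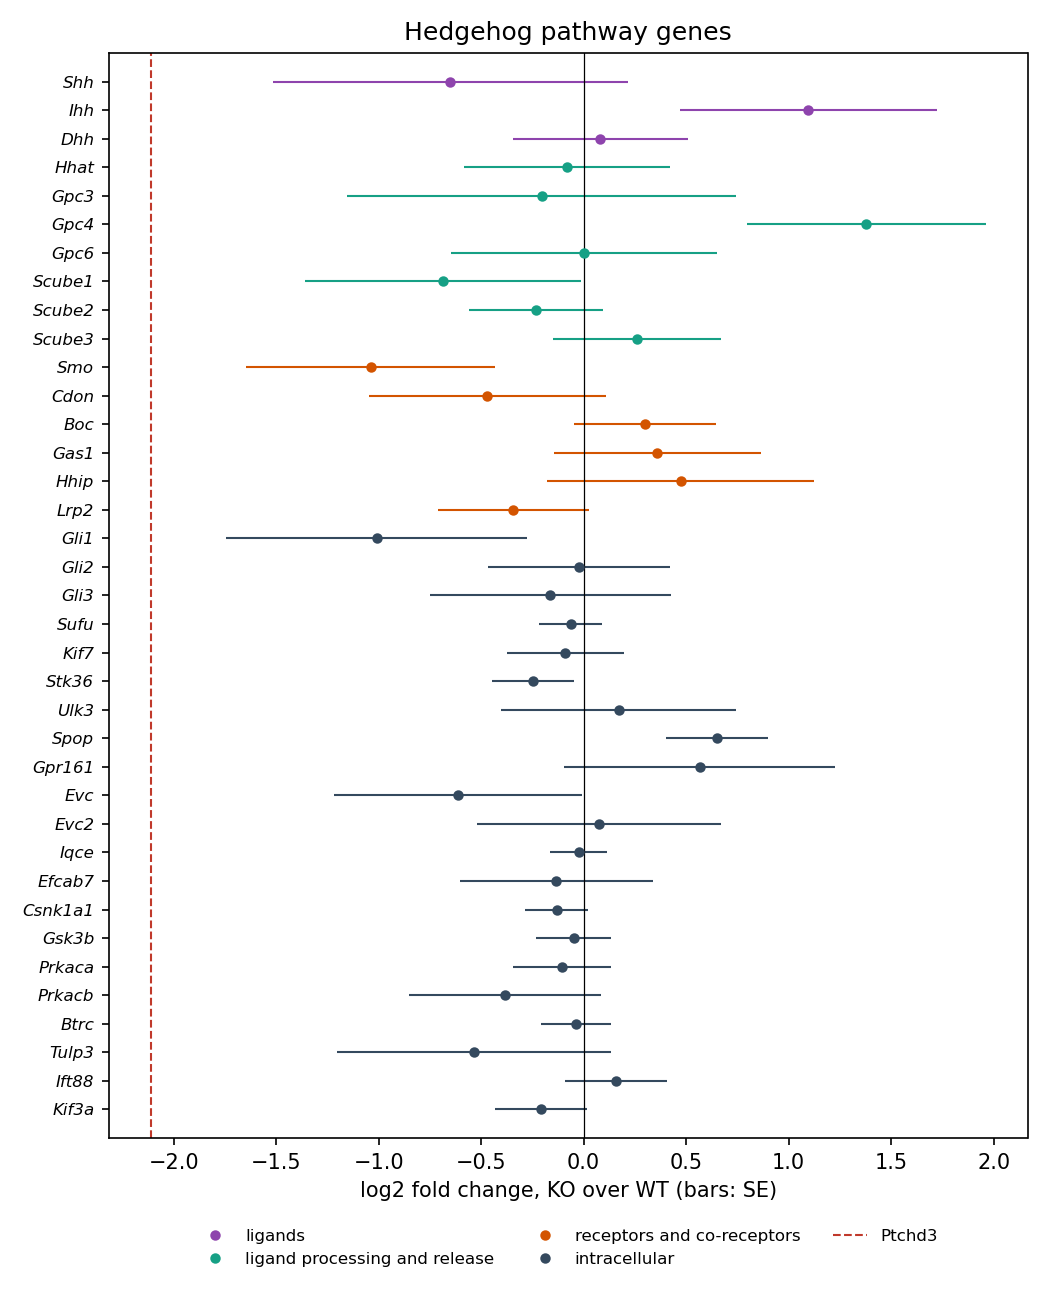
Log2 fold change of KO over WT (horizontal axis, bars for the SE) of Hedgehog pathway genes grouped by role (1 of the 38 is not drawn), with Ptchd3 as a dashed line. The values run from -1.04 to 1.38, none reaching the -2.11 of Ptchd3, and lie on both sides of 0 in each of the 4 role groups.

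Genes that share the sterol-sensing domain or handle cholesterol were examined in the same fit. Of the 6 other sterol-sensing domain genes, 0 passed the adjusted limma threshold and 0 had an unadjusted p under 0.05 (2 above 0, 4 below, median log2 fold change -0.14). Scap, the sterol sensor that escorts SREBP factors, stood at 17.9 and 24.4 CPM in the KO samples and at 28.6 and 27.4 CPM in the WT samples.

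Of 16 genes of cholesterol transport, which include the partners that hand cholesterol to NPC1 or take it onwards, 0 passed the adjusted limma threshold and 0 had an unadjusted p under 0.05 (4 above 0, 12 below, median log2 fold change -0.07). The genotypes did not overlap in 4 of the 16 (25%, against 34.4% of all tested genes). Lamp1, a lysosomal membrane glycoprotein, stood at 518 and 506 CPM in the KO samples and at 547 and 494 CPM in the WT samples. Gramd1b, which carries cholesterol from the plasma membrane to the endoplasmic reticulum, stood at 210 and 198 CPM in the KO samples and at 236 and 253 CPM in the WT samples, without overlap. Osbp, a sterol and phosphoinositide exchanger, stood at 125 and 92.0 CPM in the KO samples and at 109 and 114 CPM in the WT samples. Log2 fold changes in the cholesterol transport list ran from -0.85 to 0.36.

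The genes whose pattern over the 4 samples was most like that of Ptchd3 were found by distance. For each gene whose mean reached 20 CPM, the log2(CPM + 1) values were centred on their mean over the 4 samples, and the Euclidean distance to the centred values of Ptchd3 was taken. A gene with the same level in all 4 samples lies at 2.12, and the 10 nearest named genes lay between 1.06 and 1.19. They were Atp6v0c, Scpep1, Endov, Rabep2, Abi3, Ints11, Pigv, Rora, Usp49 and Lig4. Atp6v0c, which encodes part of the vacuolar proton pump, stood at 19.2 and 18.7 CPM in the KO samples and at 51.3 and 34.3 CPM in the WT samples. Scpep1, a serine carboxypeptidase, stood at 14.8 and 10.03 CPM in the KO samples and at 23.9 and 32.4 CPM in the WT samples. Endov, an endonuclease of inosine-bearing RNA, stood at 13.4 CPM in both KO samples and at 33.4 and 24.8 CPM in the WT samples. The 10 log2 fold changes ran from -1.20 to -0.96, so with transcripts summed they had the same direction as Ptchd3 and a smaller size. With the highest transcript only, Atp6v0c was at -2.72 and Lig4 at -0.032. No test of the 10 is given, because they were picked on these same values. In all of them but Usp49 the KO mean was under 20 CPM, so these genes reached the bound through their WT values. The 10 genes were found on 6 chromosomes, with 3 genes on chromosome 11 and 2 on chromosome 4, where Tas1r3 lies. The share of all genes on these chromosomes was not taken, so the counts show no excess on either. Their distance from Tas1r3 was not examined. As the 10 were picked for this pattern, their direction is not a result.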

How the data were processed

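Testis RNA of 2 Tas1r3 KO and 2 WT samples was analysed, grouped by title. Per the labels' protocols, libraries came from total RNA with an Ion Torrent kit. The submitters' processing notes name STAR, Partek and mm39, without versions. CPM for each RefSeq transcript were deposited, with every library scaled by the authors to 1000000, and the series table equalled the sample tables in 4 of 4 columns. Transcripts were summed per symbol. Estimated reads were whole within 0.02 in 22.9% to 48.1% of detected genes, so whole counts were not recovered. The exact intervals and the 3-read floor allow for counting error and no other.

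A gene was tested if 2 or more libraries reached 1 CPM, using limma 3.58.1 (R 4.3.3) with its mean trend option, log2(CPM + 1) values and Benjamini-Hochberg adjustment over all genes at 0.05. The fit was run on simulated data whose spread between samples was set and not taken from these samples. That run does not show how the fit behaves here. Members and lists were chosen with earlier results of these data known. Named genes were the members, Tas1r3, the 3 highest genes of each pathway list, the 10 nearest patterns and the 3 nearest neighbours; some of these are not reported here. Cell type lists are given by sums. Single markers and the Hedgehog genes Dhh, Smo, Gli1, Hhip, Gas1, Boc, Gpc4, Spop and Stk36 were named after their values were seen. A permutation of 2 against 2 samples cannot reach 0.05, so none was used. Alternatives covered pseudocount, filter, scaling, mean trend, replicate number as a block, transcript choice and each sample left out. The macrophage list held 6 genes, of which 5 were listed. BLAST and promoter searches used GRCm38 sequences and no coordinates were carried between builds. Python 3.11.15, pandas 2.3.3, scipy 1.17.1 and matplotlib 3.10.9 were used.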

Additional observations from a re-analysis of the deposited data

How the results depend on the processing

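The log2 fold change of Ptchd3 stayed between -2.22 and -2.0 under 14 alternatives. The count of genes past the adjusted limma threshold, 1 with all samples, was 0 with a pseudocount of 0.1 CPM, without a mean trend and with the highest transcript only, and between 0 and 1249 when 1 sample was left out (1249 without KO sample 1, 568 without KO sample 2, 0 without either WT sample). With 1 sample left in a genotype, that sample is assumed to vary like the other genotype. With the replicate number as a block it was 23 (6 higher, 17 lower); same-numbered samples did not deviate together (correlation -0.0054 over 17744 genes), so the numbers were not taken as pairs. Of the 6 other members, 0 passed under every alternative. Hedgehog genes past the threshold numbered between 0 and 3 with 1 sample left out. Some low genes changed sign: Disp1 was at -0.36 with the highest transcript only, Ptch1 was at -0.038 without KO sample 2 and -0.091 without WT sample 2 (from -0.091 to 0.42 over single samples left out), and Disp2 was at -0.60 without KO sample 1 (from -0.60 to 1.32). The causes were not tested. With the highest transcript only, Atp6v0c moved to -2.72 and Lig4 to -0.03. At the KO depths 1 read is worth 1.34 and 1.67 CPM, which limits the 6 other members and other genes at their levels.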
